A study of Homo sapiens with 6 samples.

Results

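The genes described here are the 3 TGF-β ligands (TGFB1, TGFB2, TGFB3), their 3 receptors (TGFBR1, TGFBR2, TGFBR3) and 4 SMAD genes (SMAD2, SMAD3, SMAD4, SMAD7), taken by gene name from the deposited expression table. All 10 have a row among the 31016 genes of that table, and all 10 passed the filter on low counts. RNA came from DLD-1, an epithelial line from a human colorectal adenocarcinoma. In 1 group, 3 libraries (TGF-β libraries 1 to 3) came from cells given TGF-β, and in the other, 3 libraries (TGF-β+TFA libraries 1 to 3) came from cells that also received TFA, a total flavone preparation from the plant Abelmoschus manihot. The labels give a treatment time of 24 h for both libraries numbered 1, 25 h for both numbered 2 and 26 h for both numbered 3, while the text on the study design names 24 h alone. Every group received TGF-β and no untreated cells are among the samples used here, so the effect of TGF-β itself cannot be measured from these levels. The labels do not say whether the 3 libraries of a group came from separate cultures, and p-values measure only the spread between these libraries. A pair of libraries stood apart: TGF-β library 1 lay farthest out on the first principal component of all genes (35.7% of the variance), and TGF-β+TFA library 3 lay farthest on the opposite side.

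TGF-β signalling starts with a secreted dimer that is held latent by its own propeptide until it is released. The active ligand binds the type II receptor TGFBR2, which phosphorylates the type I receptor TGFBR1, while TGFBR3 (betaglycan) is a co-receptor that presents ligand, TGF-β2 above all. TGFBR1 phosphorylates SMAD2 and SMAD3, these join SMAD4 and enter the nucleus to regulate genes, and SMAD7 is an inhibitory SMAD that is itself induced by the pathway. In colonic epithelium the pathway restrains growth, and in colorectal cancer it is often lost. DLD-1 is a mismatch-repair deficient line, known to lack working MSH6, and in such tumours short repeats inside coding exons gain or lose bases. The best known of these repeats in this pathway is the adenine run of TGFBR2.

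The coding repeats are shown because they are where mismatch-repair deficiency is known to act on this pathway. Runs of at least 8 identical bases were searched in the coding sequence of 1 transcript per gene. The coding strand of the GRCh38 reference was read with the GENCODE 29 annotation. Exon numbers and coding positions are those of the transcript used. Each run is printed 5′ to 3′ with 15 coding bases on either side and the run in capitals. Such a run was found in 3 of the 10 genes, against 1158 of 19435 protein-coding genes (5.96%). Only TGFBR2 among the 10 held a run of at least 10 bases, as did 77 genes of the genome (0.396%).
TGFBR2, exon 4 of 8, run of 10 adenines at chr3:30650380-30650389 (plus strand), coding position 449 of 1776: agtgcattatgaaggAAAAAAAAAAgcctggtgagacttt
TGFB2, exon 6 of 8, run of 8 adenines at chr1:218436029-218436036 (plus strand), coding position 898 of 1326: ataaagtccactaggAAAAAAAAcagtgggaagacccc
SMAD7, exon 2 of 4, run of 8 cytosines at chr18:48948425-48948432 (minus strand), coding position 619 of 1278: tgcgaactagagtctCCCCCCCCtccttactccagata
ACVR2A, the activin type II receptor and a well known target in the same tumours, exon 4 of 12, run of 8 adenines at chr2:147899472-147899479 (plus strand): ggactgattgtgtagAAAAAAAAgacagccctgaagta
ACVR2A, exon 11 of 12, run of 8 adenines at chr2:147926117-147926124 (plus strand): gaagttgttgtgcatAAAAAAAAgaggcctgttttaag
The longest runs of the other 7 genes were 5 or 6 bases: 6 cytosines in TGFB1, TGFB3 and SMAD3, 6 adenines in SMAD4, 5 guanines in TGFBR1, 5 cytosines in TGFBR3 and 5 adenines in SMAD2. These are letters of the reference genome. The table holds levels and no reads, so the length of each run in these cells was not measured, and a level of RNA does not show whether it encodes a full-length protein.

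Levels are given as FPKM (fragments per kilobase of exon, scaled to the fragments mapped in the library), the unit of the deposited table. TGFB2 was the most abundant ligand gene, TGFB1 stood lower and TGFB3 was near the floor. TGFB2 (ENSG00000092969, chr1:218345336-218444619, plus strand) was at 7.28, 5.29 and 7.74 FPKM in TGF-β libraries 1, 2 and 3 and at 6.87, 7.08 and 3.26 FPKM in TGF-β+TFA libraries 1, 2 and 3. TGFB1 (ENSG00000105329, chr19:41301587-41353922, minus strand) was at 2.21, 2.57 and 3.83 FPKM in the 3 TGF-β libraries and at 2.26, 3.09 and 1.55 FPKM in the 3 TGF-β+TFA libraries, again with the lowest value in TGF-β+TFA library 3. TGFB3 (ENSG00000119699, chr14:75958097-75981995, minus strand) was at 0.401, 0.348 and 0.363 FPKM and at 0.463, 0.391 and 0.206 FPKM in the same order. The 2 groups overlapped for all 3 ligands. TGFB2 was above TGFB1 and TGFB1 above TGFB3 in every library. By mean FPKM over the 6 libraries, TGFB2 stood at percentile 73.2, TGFB1 at 57.8 and TGFB3 at 27.7 of the 18265 genes tested.

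All 3 receptors were present, with TGFBR2 the highest of the 10 genes. TGFBR2 (ENSG00000163513, chr3:30606601-30694142, plus strand), the type II receptor kinase that carries the adenine run printed above, was at 9.47, 7.08 and 8.74 FPKM with TGF-β and at 9.13, 8.76 and 5.11 FPKM with TGF-β+TFA. Its mean level lay at percentile 77.5 of the tested genes. TGFBR1 (ENSG00000106799, chr9:99104038-99154192, plus strand), the type I receptor kinase, was at 5.91, 3.68 and 6.15 FPKM with TGF-β and at 5.99, 6.15 and 3.29 FPKM with TGF-β+TFA. In TGFBR1 the low values were TGF-β library 2 and TGF-β+TFA library 3, so each group held 1 low library and 2 at about 6 FPKM. TGFBR3 (ENSG00000069702, chr1:91680343-91886151, minus strand) was at 2.74, 1.60 and 2.95 FPKM with TGF-β and at 2.42, 2.24 and 1.08 FPKM with TGF-β+TFA, with the same low libraries in the 2 groups. TGFBR2 was above TGFBR1 in all 6 libraries, at a ratio of TGFBR1 to TGFBR2 between 0.519 and 0.704.

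The SMAD genes lay between about 1 and 5.5 FPKM. SMAD7, the inhibitor, was the highest of them by deposited FPKM in every library. SMAD7 (ENSG00000101665, chr18:48919853-48952052, minus strand) was at 4.05, 3.85 and 4.59 FPKM with TGF-β and at 4.49, 5.44 and 3.91 FPKM with TGF-β+TFA. It was the only one of the 10 genes whose lowest FPKM was not in TGF-β+TFA library 3. SMAD4 (ENSG00000141646, chr18:51028394-51085045, plus strand), the shared partner of the receptor-activated SMADs, was at 3.22, 2.91 and 3.31 FPKM with TGF-β and at 3.29, 3.44 and 2.40 FPKM with TGF-β+TFA. SMAD2 (ENSG00000175387, chr18:47808957-47931141, minus strand) was at 2.96, 2.54 and 2.76 FPKM with TGF-β and at 2.67, 2.72 and 2.35 FPKM with TGF-β+TFA, the narrowest range of the 10 genes in proportion to its level. SMAD3 (ENSG00000166949, chr15:67063763-67195169, plus strand) was at 1.99, 1.93 and 2.75 FPKM with TGF-β and at 2.24, 2.46 and 1.08 FPKM with TGF-β+TFA. SMAD2, SMAD4 and SMAD7 are neighbours on the long arm of chromosome 18, a region often lost in colorectal cancer, and all 3 were detected at 1341 estimated counts or more in every library.

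**Figure D1:**
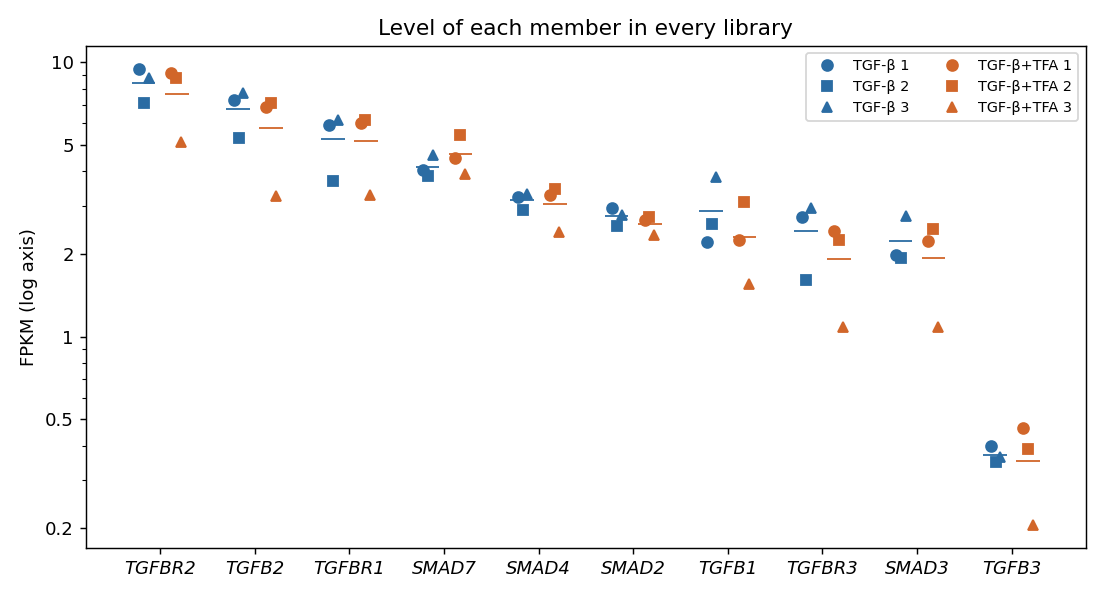
FPKM of the 10 genes on a log axis, 1 symbol per library, with TGF-β libraries in blue and TGF-β+TFA libraries in orange and a line at each group mean of 3 libraries. Genes run from the highest mean (TGFBR2, 8.05 FPKM) to the lowest (TGFB3, 0.362 FPKM), and the groups overlap in all 10.

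Ranked by mean FPKM over the 6 libraries, the order was TGFBR2 (8.05), TGFB2 (6.26), TGFBR1 (5.20), SMAD7 (4.39), SMAD4 (3.09), SMAD2 (2.67), TGFB1 (2.58), TGFBR3 (2.17), SMAD3 (2.08) and TGFB3 (0.362). A gene was taken to differ from the next in this order only where it was the higher one in all 6 libraries. That held for TGFBR2 over TGFB2, SMAD7 over SMAD4, SMAD4 over SMAD2 and SMAD3 over TGFB3. It did not hold for TGFB2 over TGFBR1 (5 of 6 libraries), TGFBR1 over SMAD7 (4 of 6), SMAD2 over TGFB1 (3 of 6), TGFB1 over TGFBR3 (4 of 6) or TGFBR3 over SMAD3 (4 of 6). Of all 45 pairs of the 10 genes, 37 kept 1 order in every library.

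The place of SMAD2 in this order rests on the length its level is divided by. The length behind the deposited FPKM values was worked out from the ratio of count to FPKM. For most of the genes checked it matched the union of the exons of the transcripts listed for the gene. The check covered 3008 genes with at least 3 transcripts and with coordinates that match the annotation. The median ratio of the length to that union was 1, and 83.9% of these genes lay within 5% of it. For SMAD2 the length worked out in this way was 36271 bases, longer than in 99.9% of tested genes. Divided instead by the shortest principal transcript of GENCODE 29 (12075 bases), the SMAD2 mean was 8.01 FPKM, and divided by the longest (34526 bases) it was 2.80 FPKM. On the shortest-transcript scale TGFBR2 was at 11.9 FPKM, SMAD2 at 8.01, TGFB2 at 7.59, TGFBR1 at 5.42, SMAD7 at 4.97, SMAD4 at 4.77, TGFBR3 at 4.73, SMAD3 at 3.09, TGFB1 at 3.03 and TGFB3 at 0.755. TGFBR2 stayed the highest and TGFB3 the lowest on both scales, while SMAD2 moved from the sixth place to the second. On the shortest-transcript scale SMAD2 was above SMAD7 in every library. SMAD4 was above SMAD7 in TGF-β libraries 1 (4.96 against 4.59 FPKM) and 2 (4.47 against 4.36 FPKM) and below it in the rest. Which SMAD2 transcripts these cells make cannot be read from a table with 1 value per gene.

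**Figure D2:**
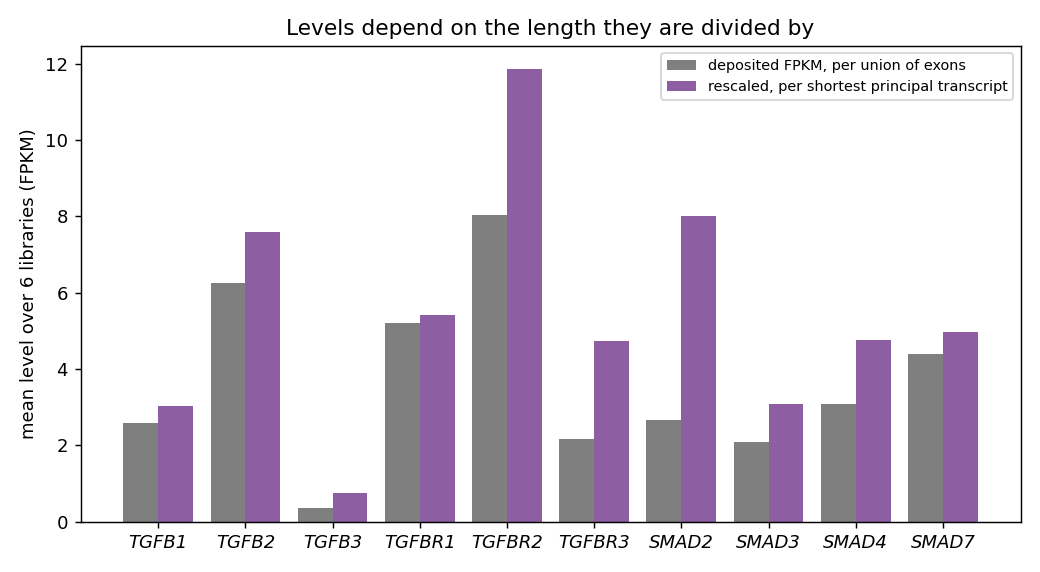
Mean level over the 6 libraries for each of the 10 genes, as deposited (grey, per base of the exon union) and rescaled to the shortest principal transcript (purple), both in FPKM. SMAD2 goes from 2.67 to 8.01 FPKM and TGFBR1 from 5.20 to 5.42 FPKM.

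Some of these genes share exon bases with a neighbour, and the sources used here do not give whether counting used the strand. TGFB1 shares 215 exon bases with HNRNPUL1 on the opposite strand, which is more abundant (17.6 FPKM). TGFB2 shares 1371 exon bases with TGFB2-OT1 on the same strand (0.364 FPKM) and none with TGFB2-AS1. SMAD4 shares 967 exon bases with AC091551 on the same strand (0.134 FPKM), and TGFB3 shares 163 with TGFB3-AS1 on the opposite strand (0.0042 FPKM). The TGFB1 level is therefore the least certain of the 10 on this point, and for the other 3 the neighbour was far below the gene.

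The comparison the design allows is TGF-β+TFA against TGF-β, and it asks here whether the flavones changed the levels of the pathway's own components. None of the 10 genes passed the test. With edgeR's quasi-likelihood test and Benjamini-Hochberg adjustment over all 18265 tested genes, 0 of 10 were called at an adjusted p under 0.05, with an adjusted p of 0.9997 for each. Over all tested genes 2 were called (0.0109%), CYP1A1 and STBD1, both higher with TFA and neither a gene of this pathway. At an unadjusted p under 0.05 stood 0 of 10 genes, against 1.83% of all tested genes. The FPKM values of the 2 groups overlapped in 10 of 10 genes, where 7.95% of tested genes had groups that did not overlap. DESeq2 called 13 genes in all (11 higher and 2 lower) and again none of these 10, and neither did limma on log2 FPKM.

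Among the ligands, TGFB1 went from 2.87 ± 0.851 to 2.30 ± 0.769 FPKM (SD, n = 3 each), a fitted log2 fold change of -0.31 (SE 0.27, 95% interval -0.93 to 0.32). For TGFB2 the means were 6.77 ± 1.301 and 5.74 ± 2.15 FPKM, with a log2 fold change of -0.23 (SE 0.26, interval -0.83 to 0.36). TGFB3 had means of 0.371 ± 0.0272 and 0.353 ± 0.133 FPKM and a log2 fold change of -0.06 (SE 0.28, interval -0.72 to 0.60). All 3 differences were close to or under 1 standard error in size, and the spread was larger in the TGF-β+TFA group for TGFB2 and TGFB3.

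Among the receptors, the means of TGFBR2 were 8.43 ± 1.22 and 7.67 ± 2.22 FPKM (log2 fold change -0.12, SE 0.19, interval -0.58 to 0.33). TGFBR1 was at 5.24 ± 1.36 and 5.15 ± 1.61 FPKM (log2 fold change -0.02, SE 0.25, interval -0.59 to 0.56). TGFBR3 had the most negative fitted value of the 10, with means of 2.43 ± 0.725 and 1.91 ± 0.727 FPKM and a log2 fold change of -0.34 (SE 0.30, interval -1.04 to 0.36). Its interval runs from 0.487-fold to 1.28-fold, so TGFBR3 is the gene for which these libraries exclude least.

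SMAD2, SMAD4 and SMAD7 had the narrowest intervals of the 10 genes. SMAD2 was at 2.75 ± 0.209 and 2.58 ± 0.198 FPKM (log2 fold change -0.06, SE 0.12), an interval of 0.793-fold to 1.16-fold. SMAD4 was at 3.15 ± 0.214 and 3.04 ± 0.565 FPKM (log2 fold change -0.03, SE 0.13), an interval of 0.793-fold to 1.21-fold. SMAD3 had a wider interval than TGFBR1, TGFBR2 and TGFB2, at 2.23 ± 0.459 and 1.93 ± 0.743 FPKM (log2 fold change -0.20, SE 0.26, interval -0.82 to 0.41). SMAD7 was the only gene fitted above 0, with means of 4.16 ± 0.386 and 4.61 ± 0.771 FPKM and a log2 fold change of 0.17 (SE 0.14), an interval of 0.902-fold to 1.41-fold. Leaving out 1 library at a time gave 0.07 (without TGF-β+TFA library 2) to 0.21. It had the lowest unadjusted p of the 10 (0.248, edgeR). Across the 10 genes every interval held 0, 9 excluded a 2-fold change in both directions (all but TGFBR3), and 4 excluded a 1.5-fold change (TGFBR2, SMAD2, SMAD4 and SMAD7). A missed threshold does not show equal levels, and changes inside these intervals could not be told from none with 3 libraries a group.

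**Figure D3:**
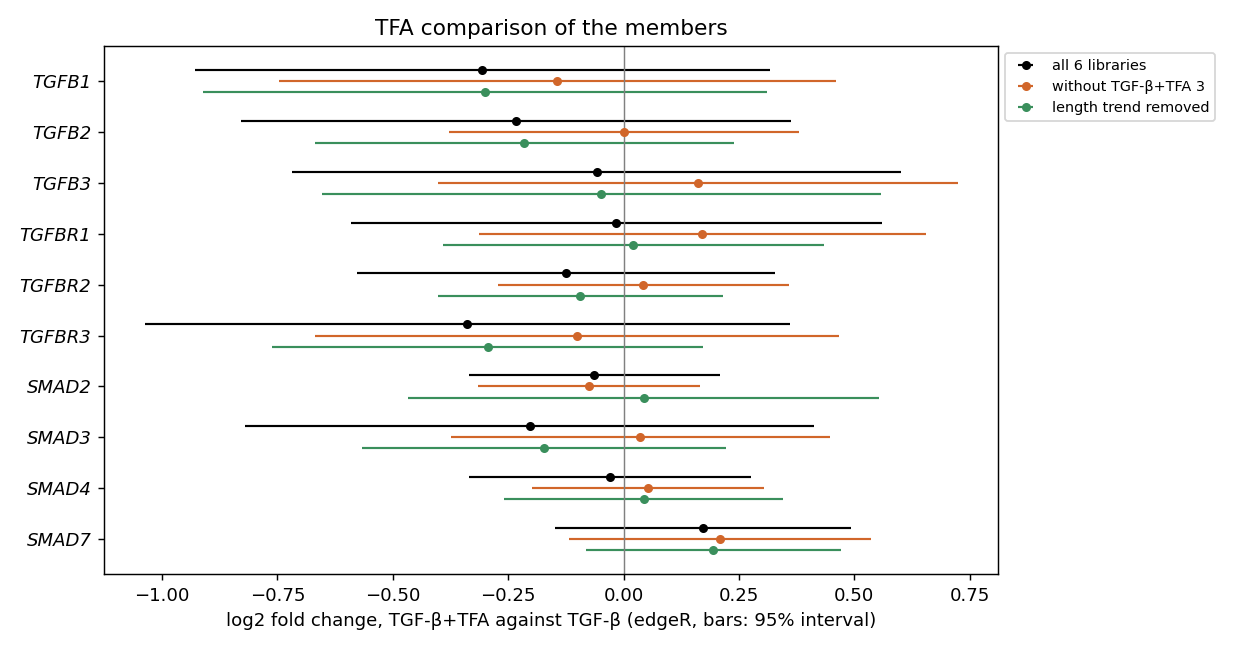
Fitted log2 fold change of TGF-β+TFA against TGF-β for each of the 10 genes, with 95% intervals, from edgeR. Fits are with all 6 libraries (black), without TGF-β+TFA library 3 (orange) and with each library's trend along gene length (bases of exon) removed (green). Every interval crosses 0, and the black points are below 0 for 9 genes while the orange points are below 0 for 3.

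For most of the 10 genes the sign of the fitted change turned on TGF-β+TFA library 3. By FPKM that library was the lowest for 9 of the 10 genes, while it was the lowest for 42.1% of all tested genes. By counts scaled to the TMM-adjusted library size (log2, minus the mean), SMAD2 was instead lowest in TGF-β library 2. It stood at -0.06 there and at -0.01 in TGF-β+TFA library 3. The FPKM of the 10 genes summed to 40.2, 31.8 and 43.2 in TGF-β libraries 1 to 3 and to 39.8, 41.8 and 24.3 in TGF-β+TFA libraries 1 to 3. TGF-β library 2 was the second lowest for 8 of the 10 genes, so each group held 1 library with low sums. With all 6 libraries the fitted change was below 0 for 9 of the 10 genes, with a median of -0.09 on the log2 scale against 0.01 over all tested genes. Without TGF-β+TFA library 3 it was below 0 for 3 of the 10 (TGFB1, TGFBR3 and SMAD2), with a median of 0.04 against 0.02. TGFB1 then stood at -0.14, TGFBR3 at -0.10 and SMAD7 at 0.21. Without TGF-β library 1 the median of the 10 genes was -0.03, and without both of these libraries it was 0.05.

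TGF-β+TFA library 3 also carried a trend along gene length. Relative to the mean of the 6 libraries (log2), it had a median of 0.40 for the shortest 10% of genes and of -0.38 for the longest 10%. TGF-β library 2 had the same direction at 0.10 and -0.18, and the remaining 4 libraries had the opposite one. Of the 10 genes, 9 are longer than the median tested gene (4878 bases of exon), TGFB1 with 3245 bases being the exception. Beside each gene's length stand the deviations of TGF-β+TFA library 3 on the log2 CPM scale (counts scaled to the TMM-adjusted library size). SMAD2 (36271 bases) lay at -0.01, SMAD4 (13080 bases) at -0.19, SMAD3 (9303 bases) at -0.72 and TGFBR3 (8554 bases) at -0.76. TGFBR2 (6820 bases) lay at -0.46, TGFBR1 (6792 bases) at -0.44 and TGFB2 (6026 bases) at -0.71. The shortest 3, TGFB3 (5259 bases), SMAD7 (5017 bases) and TGFB1 (3245 bases), lay at -0.58, 0.01 and -0.51. With offsets that remove the length trend of each library, the median fitted change of the 10 genes was -0.07. These offsets put TGFBR1, SMAD2 and SMAD4 above 0. They lowered the SE of TGFBR3 from 0.30 to 0.20, that of SMAD3 from 0.26 to 0.17 and that of TGFB2 from 0.26 to 0.20. The SE also fell for TGFBR1, TGFBR2, TGFB3 and SMAD7. That of SMAD2 rose from 0.12 to 0.22, while those of SMAD4 (0.13) and TGFB1 (0.27) hardly moved.

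**Figure D4:**
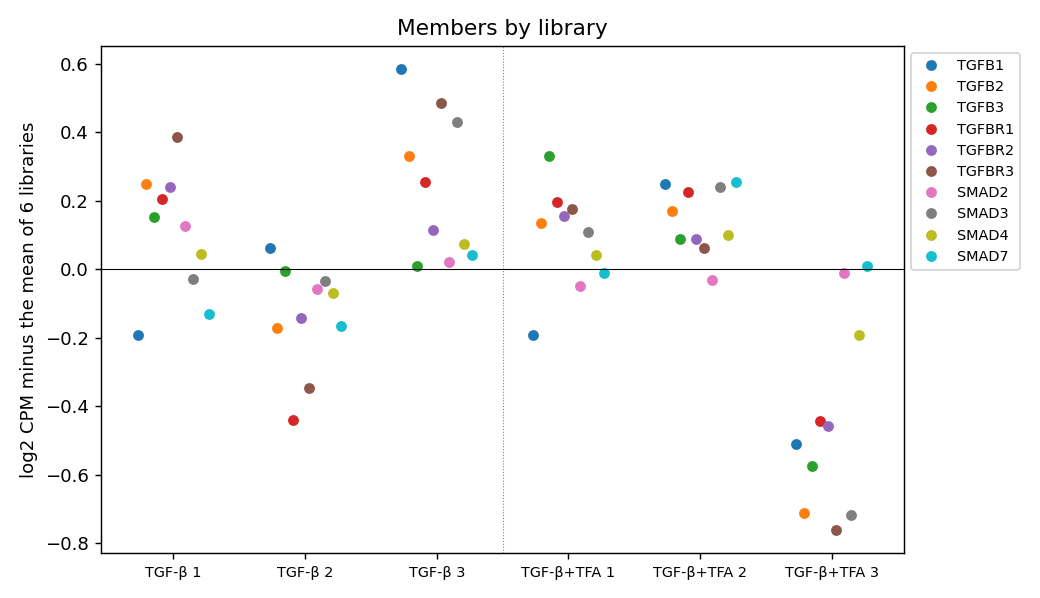
log2 CPM of each of the 10 genes minus its mean over the 6 libraries, by library, 1 colour per gene, with the TGF-β group left of the dotted line. In TGF-β+TFA library 3, 8 genes lie between -0.76 and -0.19, while SMAD2 (-0.01) and SMAD7 (0.01) lie at their means.

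Ratios between genes of 1 library do not depend on how its total was scaled, and 4 were fixed for the receptors and SMADs. A trend along gene length, as in TGF-β+TFA library 3, does not cancel between genes of unlike length. Its part in these ratios was not tested. The ratio of SMAD7 to SMAD2 plus SMAD3, the inhibitor over the SMADs it opposes, was 0.819, 0.861 and 0.832 in the TGF-β libraries and 0.914, 1.05 and 1.14 in the TGF-β+TFA libraries, so the groups did not overlap. Its log2 difference was 0.30, with a 2-sided exact permutation p of 0.1, the smallest that 3 against 3 libraries can give, and 0.2 after adjustment over the 4 ratios. The ratio of SMAD4 to SMAD2 plus SMAD3 was 0.652, 0.650 and 0.600 against 0.669, 0.665 and 0.698, also without overlap (log2 difference 0.10, exact permutation p of 0.1, adjusted 0.2). The SMAD7 and SMAD4 ratios share the denominator SMAD2 plus SMAD3, so they are not independent results. Neither ratio passed the threshold of 0.05, which this design cannot reach. Without TGF-β+TFA library 3 the log2 difference was 0.23 for the SMAD7 ratio and 0.07 for the SMAD4 ratio. On the shortest-transcript scale, chosen after the values were seen, the SMAD7 ratio was 0.388, 0.415 and 0.420 against 0.448, 0.521 and 0.511, still without overlap. The SMAD4 ratio on that scale was 0.419, 0.426 and 0.411 against 0.446, 0.448 and 0.425, where the groups overlapped.

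The other 2 ratios overlapped between the groups. TGFBR1 to TGFBR2 was 0.624, 0.519 and 0.704 with TGF-β and 0.656, 0.703 and 0.644 with TGF-β+TFA (log2 difference 0.13, exact permutation p of 0.5, adjusted 0.667). SMAD2 to SMAD3 was 1.48, 1.31 and 1.0035 with TGF-β and 1.19, 1.10 and 2.18 with TGF-β+TFA (log2 difference 0.18, exact permutation p of 0.8, adjusted 0.8). The value of 2.18 was TGF-β+TFA library 3, where SMAD3 was low and SMAD2 was not; without it the log2 difference was -0.12. On the shortest-transcript scale SMAD2 exceeded SMAD3 by 2.02 to 4.398 times, while per longest principal transcript the SMAD2 mean of 2.80 FPKM lay below the 3.09 FPKM of SMAD3. Which of them is higher thus depends on the SMAD2 transcript taken.

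The rest of the pathway was read from 9 lists with 78 genes, of which 74 were tested. As for the 10 genes, none was called in either direction (edgeR, adjusted p 0.9997 for each), and 0 of 74 had an unadjusted p under 0.05, against 1.83% of all tested genes. DESeq2 called none of them either. Of the 74, 27 were fitted above 0 and 47 below, with a median of -0.05, and 51 had their lowest value in TGF-β+TFA library 3. Without that library 33 of the 74 were below 0 and the median was 0.06. By FPKM the groups did not overlap for 4 of the 74, against 7.95% of tested genes. LTBP2 and FST were higher with TFA and FSTL3 and JUNB lower.

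Latent TGF-β is released by proteases and by integrins that pull on its binding proteins. Of the 10 tested genes of this list, 4 were fitted above 0 and 6 below. ITGAV, the integrin αv subunit, was its most abundant member at a mean of 22.5 FPKM (log2 fold change -0.21, SE 0.27), followed by FURIN, the protease that cleaves the TGF-β propeptide, at 5.01 FPKM (-0.23, SE 0.23). LTBP2, of the latent TGF-β binding protein family, had the lowest unadjusted p of all 74 genes (0.0556, edgeR) at a level of 0.134 FPKM (log2 fold change 0.65, SE 0.29). LTBP1, which tethers latent TGF-β to the matrix, was at 2.01 FPKM (-0.31, SE 0.24).

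Among 9 tested genes that act at the receptors, 6 were fitted above 0 and 3 below. STRAP, a scaffold that binds receptors and SMAD7, stood at 81.6 FPKM (log2 fold change 0.03, SE 0.14), and FKBP1A, which binds TGFBR1 and keeps it silent, at 61.0 FPKM (0.01, SE 0.13). ENG (endoglin), an endothelial co-receptor, was at 0.113 FPKM (0.66, SE 0.75). VASN, a membrane protein that traps TGF-β, was at 0.841 FPKM (-0.30, SE 0.34).

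Activins and nodal signal through the same SMAD2 and SMAD3. Of 12 tested genes of that branch, 5 were fitted above 0 and 7 below. TDGF1, a nodal co-receptor, was at 2.88 FPKM (log2 fold change 0.23, SE 0.25). ACVR2A, whose 2 adenine runs are printed above, was at 2.68, 1.83 and 2.70 FPKM with TGF-β and at 2.69, 2.73 and 1.52 FPKM with TGF-β+TFA (log2 fold change -0.04, SE 0.22). Its low libraries were TGF-β library 2 and TGF-β+TFA library 3, as for TGFBR1 and TGFBR3. NODAL and FST (follistatin, an activin antagonist) were at 0.113 and 0.110 FPKM, with SEs near 1 on the log2 scale. FST was listed at 0 in TGF-β library 1, at 0.106 and 0.104 FPKM in the other TGF-β libraries and at 0.173, 0.136 and 0.142 FPKM with TGF-β+TFA. FSTL3, a relative of follistatin, was at 2.41, 2.40 and 2.49 against 2.33, 2.15 and 1.98 FPKM (log2 fold change -0.14, SE 0.14).

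The other 4 SMADs were all fitted below 0. SMAD5 and SMAD1, which carry BMP signals, were at 8.55 and 4.32 FPKM (log2 fold changes of -0.03, SE 0.20, and -0.05, SE 0.12). SMAD5 was thus above SMAD2 and SMAD3 on the deposited scale. SMAD6, the inhibitory SMAD of the BMP branch, was at 0.0900 FPKM (-0.38, SE 0.36) and SMAD9 at 0.0714 FPKM (-0.57, SE 0.66).

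Of 8 SMAD partners and transport factors, 1 was fitted above 0 and 7 below. IPO7, a nuclear import receptor, was at 148.19 FPKM (log2 fold change -0.06, SE 0.20), and LEMD3, an inner nuclear membrane protein that binds SMAD2 and SMAD3, at 9.04 FPKM (-0.06, SE 0.12). FOXH1, a DNA-binding partner of SMAD2, was at 0.149 FPKM (1.14, SE 1.28) and CREBBP, a co-activator, at 0.644 FPKM (-0.27, SE 0.31). Of 5 co-repressors, 2 were above 0 and 3 below: TGIF1 was at 5.33 FPKM (0.12, SE 0.12) and SKI at 1.55 FPKM (-0.16, SE 0.21). All of these differences lay within about 1 standard error of 0.

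Among 13 genes that remove or damp receptors and SMADs, 4 were fitted above 0 and 9 below. STUB1, a ubiquitin ligase, was at 25.4 FPKM (log2 fold change 0.06, SE 0.15) and UCHL5, a deubiquitinase, at 13.7 FPKM (0.03, SE 0.13). SMURF2, the ligase that SMAD7 brings to the receptors, was at 4.64 FPKM (-0.25, SE 0.17), and PMEPA1, a TGF-β-induced inhibitor, at 0.624 FPKM (-0.20, SE 0.22). Of 7 genes of the SMAD-independent branch, 3 were above 0 and 4 below. RHOA, a small GTPase, was at 182.3 FPKM (-0.05, SE 0.12), TRAF4 at 6.74 FPKM (-0.20, SE 0.13) and TRAF6, a ubiquitin ligase that binds TGFBR1, at 1.46 FPKM (-0.24, SE 0.21).

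Of 6 genes known to respond directly to TGF-β, 2 were fitted above 0 and 4 below, with a median of -0.13. JUNB, a transcription factor gene, was at 16.6, 16.0 and 15.7 FPKM with TGF-β and at 14.1, 14.3 and 13.985 FPKM with TGF-β+TFA, so that every TGF-β+TFA library was below every TGF-β library. That separation is one of FPKM: in log2 CPM, TGF-β+TFA library 3 lay 0.07 above the mean of the other libraries. The log2 fold change of JUNB was -0.15 (SE 0.12), with an unadjusted p of 0.247 (edgeR) and no call. TGFBI, a matrix protein gene named for its induction by TGF-β, was at 12.1 FPKM (-0.12, SE 0.13) and IL11, a cytokine gene, at 0.115 FPKM (-0.92, SE 0.74).

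**Figure D5:**
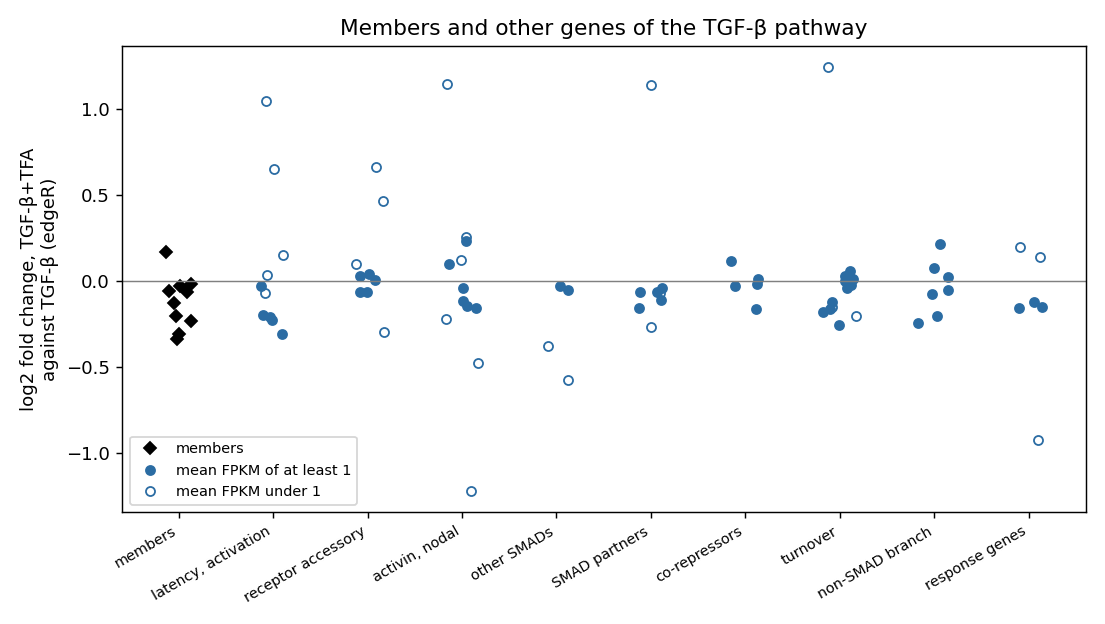
Fitted log2 fold change of TGF-β+TFA against TGF-β (edgeR) for the 10 genes (diamonds) and the 74 other tested pathway genes by role (circles, filled at a mean of at least 1 FPKM and open below it). No point is a call, and all values beyond 0.5 in size belong to genes under 1 FPKM.

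Mismatch repair genes were read for the background of the line. Mean levels over the 6 libraries were 4.65 FPKM for MSH3, 4.05 for PMS2 and 2.35 for MSH6. None of these 3 was called (edgeR, adjusted p 0.9997 for each). MSH6, whose product DLD-1 is known to lack in working form, thus had detectable RNA in all 6 libraries (1.83 to 2.88 FPKM), and its level does not show whether the protein works.

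Genes whose log2 CPM ran most like that of 4 of the 10 genes over the 6 libraries were sought among 10481 genes with a mean of at least 1 FPKM. These are descriptions over 6 points, of which TGF-β+TFA library 3 was the lowest for TGFB1, TGFBR2 and SMAD3 but not for SMAD7. For TGFBR2 they were PHLDB2 (Pearson r 0.999) and TPP2 (0.998), and 1449 genes had an r over 0.9 with it. For SMAD3 they were AGAP1 and BACE2 (0.997 each), with 762 genes over 0.9. For TGFB1 they were ASB6 (0.990) and PPP1R3D (0.984), with 133 genes over 0.9. SMAD7 had the fewest such genes, 18, led by AC026362 (ENSG00000256028, 0.982) and IRAK1 (0.953).

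Library totals ran from 60361756 to 68745953 estimated counts, with 23096 to 24159 genes above 0. Of the 9 epithelial markers on the list 8 had a row in the table (all but CDX1), and 7 had a mean of at least 1 FPKM. KRT18 (725.1 FPKM) and KRT8 (387 FPKM) were the highest, while VIL1 was at 0.218 FPKM. Markers of other cell types were at trace level, but those of fibroblasts moved with the groups: the 10 on the list summed to 0.0630, 0.312 and 0.373 FPKM in the TGF-β libraries and to 0.464, 1.97 and 2.40 FPKM in the TGF-β+TFA libraries. The most abundant were COL1A2 (0.289 FPKM) and COL1A1 (0.265 FPKM). Of 7 tested, 4 had an unadjusted p under 0.05 (edgeR), against 1.83% of all tested genes, and none was called. The median log2 fold change of these 7 was 2.85, and 1.78 without TGF-β library 1 and TGF-β+TFA library 3. COL3A1, DCN and LUM were listed at 0 in all 3 TGF-β libraries and in TGF-β+TFA library 1, LUM also in TGF-β+TFA library 2. The groups did not overlap for COL1A2, COL6A3 and PDGFRA, against 7.95% of tested genes, and overlapped for the other 7. The 4 endothelial markers, led by VWF and KDR, summed to 0.0103 to 0.116 FPKM against 0.177 to 0.281 FPKM. Only VWF and KDR of them were tested, and the groups did not overlap for either. Their median log2 fold change was 1.87, and 1.21 without TGF-β library 1 and TGF-β+TFA library 3. COL1A2, VWF and KDR were listed at 0 in TGF-β library 1. The 3 haematopoietic markers with a row, led by CD14, summed to 0.469 to 0.519 against 0.346 to 0.669 FPKM. Fibroblasts and endothelial cells also express TGF-β ligands and receptors, and the part of this trace RNA in the values of the 10 genes was not tested. In bulk RNA, a change in the number of cells and one in RNA per cell cannot be told apart.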

How the data were processed

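RNA-seq of 6 DLD-1 libraries was used, 3 per group. Per the labels' protocols, poly(A) RNA was made into strand-marked (dUTP) paired-end libraries with molecular identifiers; no source used here says whether duplicates were removed with them. Per the submitters' processing notes, cutadapt 1.9, HISAT2 2.0.4 and StringTie 1.3.4d were used with GRCh38; their roles are not stated. The deposited table holds, per gene and library, an FPKM value and an estimated count made by the authors. The counts are whole numbers that scale with FPKM times exon length, and 1 fragment may add about 4, so totals overstate depth (60361756 to 68745953 per library).

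The estimated counts were tested in edgeR 4.0.16 (R 4.3.3) with filterByExpr, TMM scaling, a quasi-likelihood fit on group alone and glmQLFTest (2-sided), with Benjamini-Hochberg adjustment over 18265 genes and a threshold of 0.05. The step was tested on simulated data. Standard errors are the log2 fold change over the square root of F. Ratios used exact permutation tests (SciPy 1.17.1). Levels are FPKM as deposited, or CPM where named. No rows were without a gene. Coding runs were read from GRCh38 with GENCODE 29.

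The 10 genes and the gene lists were chosen with earlier results of these data known. Named beside them were, per list, the 2 genes of highest mean FPKM and the 2 with the lowest unadjusted p, the 2 genes most like TGFB1, TGFBR2, SMAD3 and SMAD7, mismatch repair genes and the 2 most abundant markers of each type. CYP1A1, STBD1, FSTL3, VIL1 and the fibroblast markers beyond COL1A2 and COL1A1 were named after their values were seen. Some genes that this rule names are not reported here. Alternatives were DESeq2 1.42.0 (size factors, Wald test), filters (none, or mean FPKM of 1 or more), counts divided by 4, limma 3.58.1 on log2(FPKM + 0.5), with pseudocounts 0.1 and 1, length-trend offsets, a replicate block, and leaving libraries out.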

Additional observations from a re-analysis of the deposited data

How the results depend on the processing

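Over 17 other fits, the 10 genes gave 169 values, of which 0 passed the threshold and 16 changed sign; the lowest adjusted p of any was 0.887 and the lowest unadjusted p 0.0813. No member and none of the other pathway genes was called under any of them. A filter at a mean FPKM of 1 left TGFB3 untested. With length offsets TGFBR1 stood at 0.021, SMAD2 at 0.0435 and SMAD4 at 0.0442 (log2). Without TGF-β library 1 and TGF-β+TFA library 3 together, TGFB2 was at 0.043, TGFB3 at 0.20, TGFBR1 at 0.25, TGFBR2 at 0.12 and SMAD4 at 0.054. Leaving out 1 library at a time gave -0.54 to -0.09 for TGFB1, -0.56 to -0.10 for TGFBR3, -0.11 to -0.02 for SMAD2, 0.07 to 0.21 for SMAD7, -0.39 to 0.0013 for TGFB2, -0.27 to 0.16 for TGFB3, -0.21 to 0.17 for TGFBR1, -0.25 to 0.043 for TGFBR2, -0.40 to 0.037 for SMAD3 and -0.10 to 0.052 for SMAD4; for the genes with a changed sign, values above 0 came without TGF-β+TFA library 3, except that TGFBR1 was also above 0 without TGF-β library 1 (0.08) or 3 (0.07). Without 1 library, the log2 difference of the SMAD2 to SMAD3 ratio ran from -0.12 to 0.37, and that of SMAD7 to SMAD2 plus SMAD3 from 0.23 to 0.38. The median of the 10 genes ran from -0.26 to 0.04 without 1 library and was 0.05 without both libraries named. Over all genes, calls with TFA were 11 higher and 2 lower by the DESeq2 Wald test, 1 lower without both libraries named, and 1 to 3 higher and 0 lower without 1 library (1 each without TGF-β library 2, TGF-β+TFA library 1 or 2); the cause was not tested. Same-numbered libraries did not deviate together (r of 0.04, -0.12 and -0.13), so the numbers were not taken as pairs; with the replicate block 1 gene was called higher and the median of the 10 genes was -0.12. At 75 to 165 estimated counts, TGFB3 is the gene most limited by depth.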
